A study of Mus musculus with 9 samples.

Results

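The Hox genes of the mouse were followed in RNA-seq libraries of calvarial cells, the bone-forming cells of the skull vault. They were taken as every protein-coding gene named Hoxa, Hoxb, Hoxc or Hoxd followed by a number, which gave 39 of 40548 genes: 11 of the HoxA, 10 of the HoxB, 9 of the HoxC and 9 of the HoxD cluster. Cells were isolated from the calvaria of C57BL/6 pups at postnatal day 2 to 3, grown to confluence and harvested undifferentiated at day 0, or after 4 or 7 days in mineralization medium, with 3 libraries per stage. By the study's methods the periosteum was stripped before collagenase digestion and the medium held ascorbic acid and beta-glycerol phosphate, pups of both sexes were used, and no separation of frontal from parietal bone is described. The libraries of a stage are described as biological replicates, but no source says whether each came from its own isolation of cells, so p-values measure the spread between these libraries, which may be technical.

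Hox genes encode homeodomain transcription factors that give cells their position along the head-to-tail axis and along the limb. They lie in 4 clusters in which gene order follows the order of expression along the body, and genes that hold the same place in different clusters form a paralog group, named by the number in the symbol. The front of the head is formed without them: the cranial neural crest that builds the face and the frontal bone is classically described as Hox-negative, while low-numbered groups are used in the hindbrain and pharyngeal arches, middle groups in the trunk and high-numbered groups in the lower trunk, limbs and tail. In cells that do not use them the clusters are covered by Polycomb repression.

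Libraries held 7741204 to 14013219 reads on genes at day 0, 32820610 to 37306090 at day 4 and 10675858 to 15622755 at day 7. At these depths a gene without reads was bounded only to 3 reads per library, which is 0.0804 CPM (reads on a gene per 1000000 reads on all genes) in the deepest library and 0.387 CPM in the shallowest. These bounds and the Poisson intervals below cover counting error only. Osteoblast markers showed the labelled differentiation: 5 of 6 rose from day 0 to day 7 (limma), beside 12.6% of all genes. Their summed level went from 11690 to 16398 CPM over the day 0 libraries to 39177 to 49541 CPM over the day 7 libraries. Other cells were marked as follows. Macrophage markers summed to 59.2 to 103 CPM at day 0 and 113 to 148 CPM at day 7, haematopoietic progenitor markers to 12.9 to 20.3 and 18.3 to 34.5 CPM, meningeal markers to 111 to 165 and 74.7 to 100.05 CPM, and chondrocyte markers to 896 to 2640 and 291 to 804 CPM. Endothelial, keratinocyte and skeletal muscle markers stayed at or below 2.34, 4.00 and 0.428 CPM in all 9 libraries, with Tie1, Emcn and Myf5 at 0 reads, and neural markers at 40.2 to 61.3 CPM came almost wholly from Tubb3. Of the markers tested, all 6 macrophage markers, 1 of 3 progenitor, 2 of 3 meningeal and 2 of 4 chondrocyte markers rose, and 1 meningeal and 2 chondrocyte markers fell. Only 1 of 6 keratinocyte and 1 of 6 neural markers could be tested, and neither passed. No endothelial or skeletal muscle marker was tested. Over all 12712 genes in the same test, 12.6% were higher and 18.6% lower at day 7. The part of these cells in the Hox levels was not tested. In bulk RNA, moreover, fewer cells of a type and less RNA per cell cannot be told apart.

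All 4 Hox clusters had reads, but few. The 39 genes together collected 1250 reads in the 9 libraries. HoxD held 677 of them (54.2%), HoxB 301 (24.1%), HoxA 201 (16.1%) and HoxC 71 (5.68%). At least 1 read fell on 32 genes. The other 7 had none in any library: Hoxa6, Hoxb1, Hoxb7, Hoxb13, Hoxc6, Hoxc10 and Hoxd12. Another 16 never passed 3 reads in any library, and 10 passed it in some libraries but not in all 3 of any stage. That left 6 genes with more than 3 reads in every library of at least 1 stage, here called detected. Among them were Hoxd8, Hoxd9, Hoxb9, Hoxa2 and Hoxc13. Hoxd8, Hoxd9 and Hoxb9 alone made up 65.5% of all Hox reads.

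**Figure D1:**
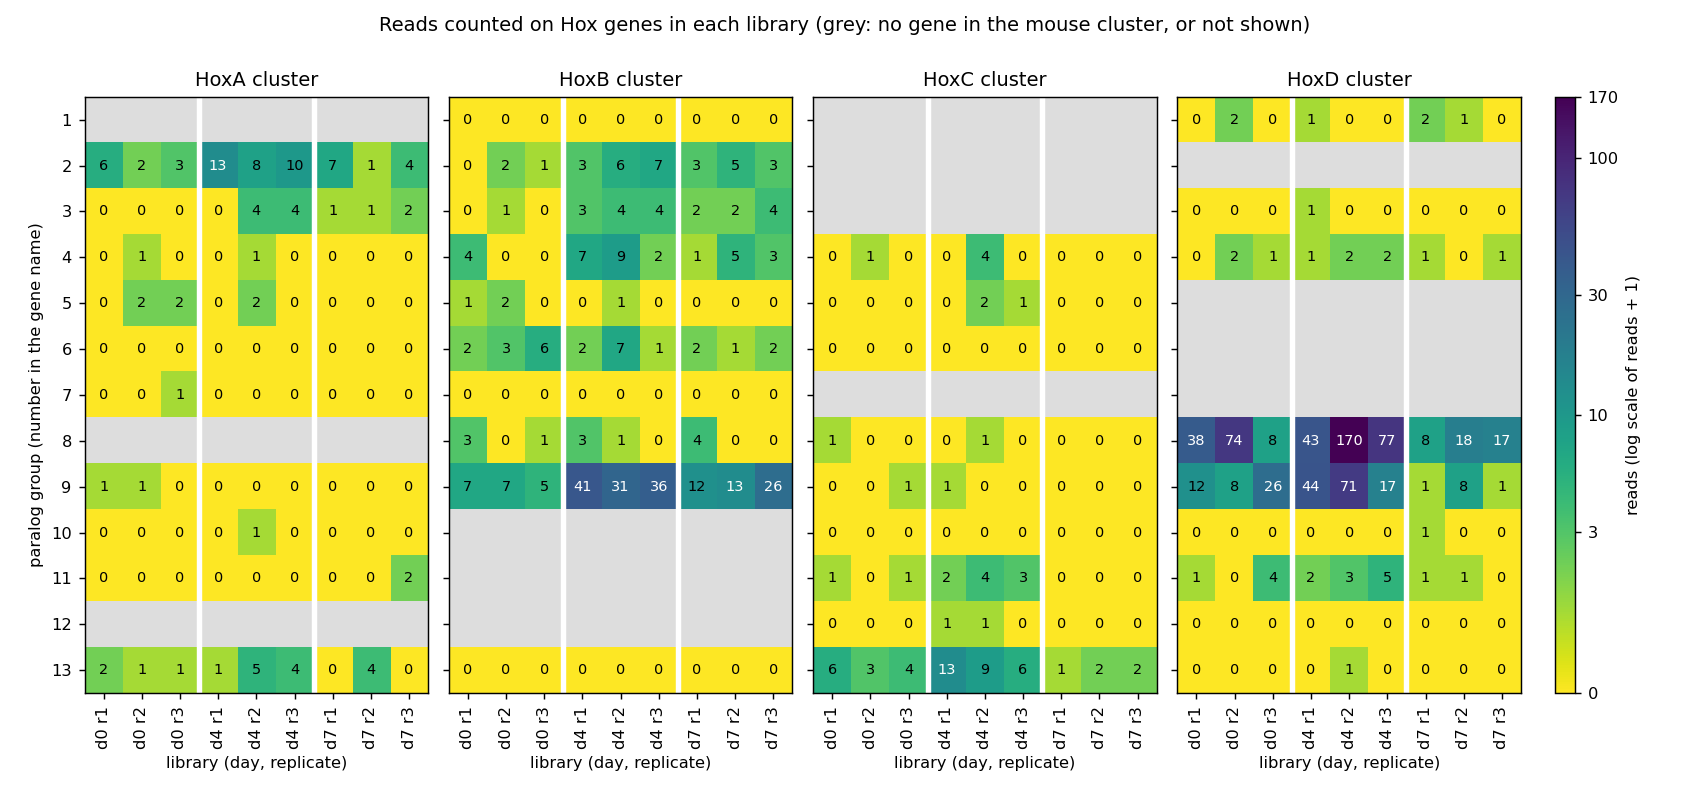
Reads counted on Hox genes in each of the 9 libraries, with 1 panel per cluster, paralog groups 1 to 13 down the rows and libraries (d, day; r, replicate) across the columns; colour follows the reads on a log scale and grey marks a place with no gene in that cluster or a gene not shown. Most cells hold 0 to 3 reads, and the rows that stand out are Hoxd8 with 8 to 170 reads, Hoxd9 with 1 to 71 and Hoxb9 with 5 to 41.

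Set against all protein-coding genes the Hox genes were low. Of the 39, 7 (17.9%) had no read in any library, against 19.7% of 21613 protein-coding genes. Only 2 Hox genes (5.13%), Hoxb9 and Hoxd8, passed 3 reads in all 9 libraries, against 56.5% of protein-coding genes. Scaled by gene length as well (RPKM, the unit in which levels of different genes can be compared), no Hox gene averaged above 1 over the 9 libraries, whereas 49.9% of protein-coding genes did. The median of the genes' mean RPKM was 0.00825 for Hox genes and 0.984 for protein-coding genes. Even Hoxd8, with the most reads over all libraries, was above only 41.6% to 56.6% of protein-coding genes by RPKM, depending on the library.

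Most genes around the clusters were not low. Within 200 kb of the clusters lay 16 other protein-coding genes outside them. Of these, 10 averaged above 1 RPKM, from 2.30 to 35.8 and none nearer than 60.7 kb, beside 49.9% of all protein-coding genes. They included Mtx2, a mitochondrial outer membrane protein gene 60.7 kb beyond HoxD with 252 to 1390 reads per library, Lnpk on the other side of HoxD with 184 to 1049, Skap2 next to HoxA with 67 to 342, Smug1 beyond HoxC with 92 to 664 and Ube2z near HoxB with 978 or more. The other 6, Evx1, Evx2, Gip, Calcoco2, Ttll6 and Skap1, averaged at most 0.0709 RPKM. Evx1 and Evx2 are homeobox genes that adjoin the high-numbered ends of HoxA and HoxD, and neither passed 7 reads in any library.

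**Figure D2:**
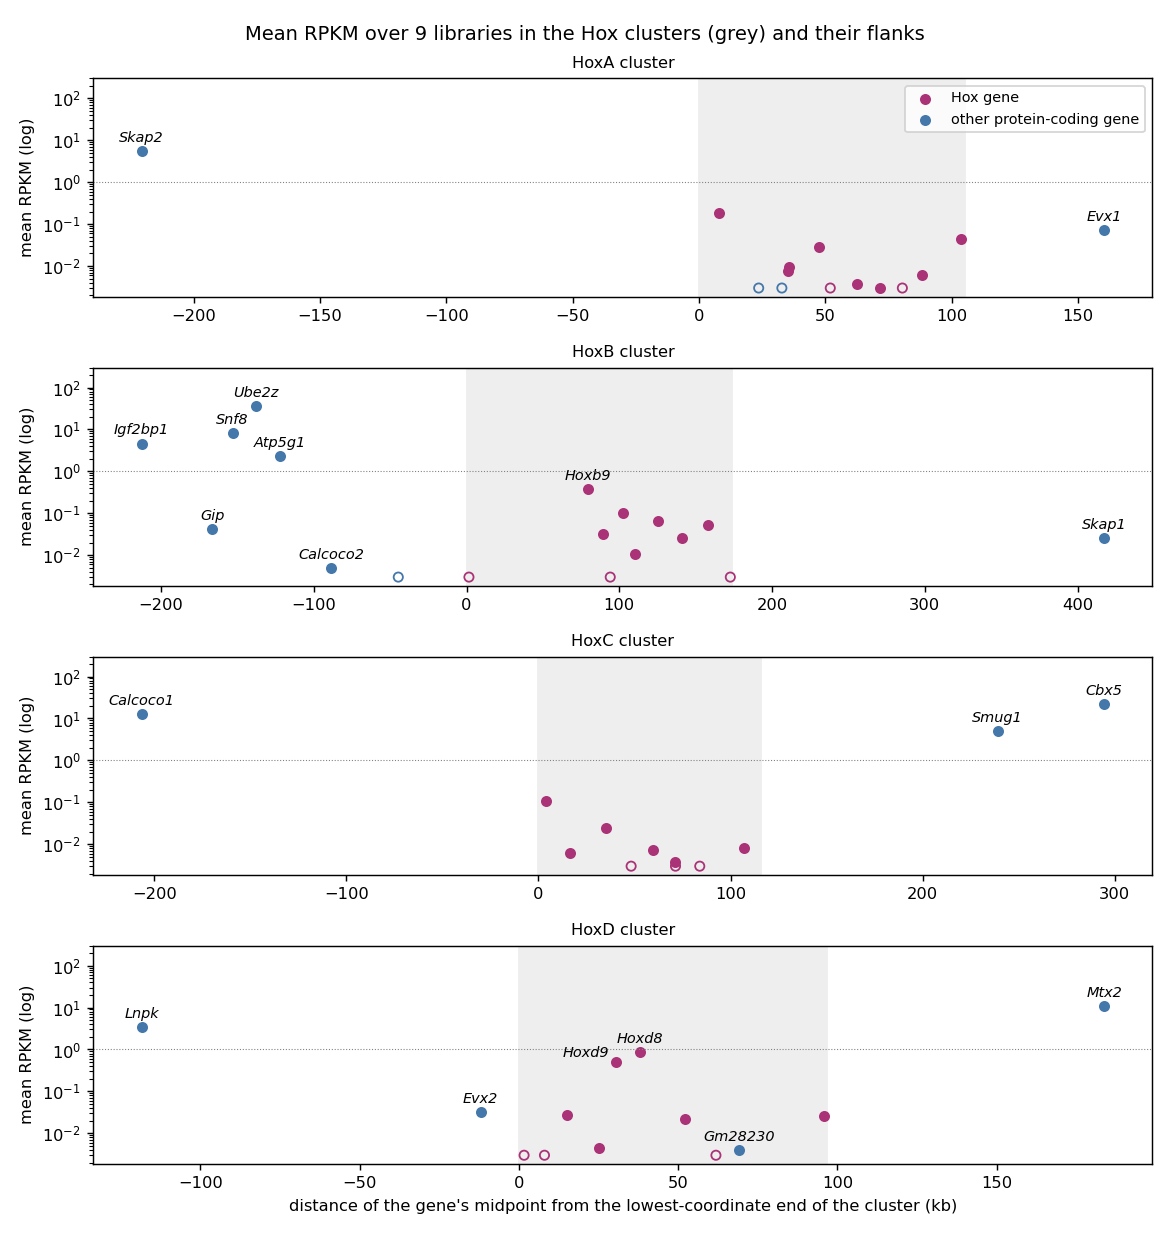
Mean RPKM over 9 libraries (log axis) of protein-coding genes in the 4 Hox clusters and within 200 kb of them, against the distance of the gene's midpoint from the lowest-coordinate end of the cluster in kb; the grey band is the cluster, red points are Hox genes, blue points other genes, and open circles at the bottom edge are genes at or near 0. The Hox genes lie below the dotted line at 1 RPKM, while Skap2, Ube2z, Snf8, Igf2bp1, Atp5g1, Calcoco1, Smug1, Cbx5, Lnpk and Mtx2 lie above it.

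Position in the cluster did not sort the reads into a single block. Paralog groups 1 to 3 (8 genes) held 226 reads and 2 detected genes, groups 4 to 8 (15 genes) 555 reads and Hoxd8 as the only detected gene, and groups 9 to 13 (16 genes) 469 reads and 3 detected genes. In HoxA, Hoxa2 had 54 reads in all, while Hoxa4 to Hoxa11 had at most 2 reads per library and Hoxa13 had 18 in all. In HoxD most reads fell in the middle: the neighbours Hoxd8 and Hoxd9 took 453 and 188 reads, while Hoxd10 had 1 read in all, Hoxd11 17 and Hoxd12 none.

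The 250 bases before the RefSeq start are shown for Hoxd8, the Hox gene with the most reads over all libraries, and for Hoxd10. Hoxd10 is nearly silent and lies in the same cluster, on the far side of Hoxd9. The sequence at a start with reads can so be compared with that at a start nearly without. The build is GRCm38.p6, both are on the plus strand of chromosome 2, and capitals mark CG dinucleotides, the sites of DNA methylation. Hoxd8 is at chr2:74704365-74704614 and Hoxd10 at chr2:74691641-74691890.
Hoxd8: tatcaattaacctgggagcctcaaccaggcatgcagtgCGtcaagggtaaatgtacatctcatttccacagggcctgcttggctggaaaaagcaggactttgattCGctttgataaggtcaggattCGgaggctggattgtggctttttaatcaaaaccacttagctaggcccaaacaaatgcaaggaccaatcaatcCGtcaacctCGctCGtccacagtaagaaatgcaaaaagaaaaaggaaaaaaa
Hoxd10: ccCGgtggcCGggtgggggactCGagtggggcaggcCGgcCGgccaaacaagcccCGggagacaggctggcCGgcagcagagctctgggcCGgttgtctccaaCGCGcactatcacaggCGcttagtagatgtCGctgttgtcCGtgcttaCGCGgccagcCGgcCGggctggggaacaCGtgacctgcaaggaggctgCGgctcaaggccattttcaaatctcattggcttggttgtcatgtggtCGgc
The Hoxd8 stretch holds 6 CG dinucleotides and the Hoxd10 stretch 20. Over the 22 Hox genes with a promoter entry the median was 12, against 6 over 27025 promoters of all genes, of which 91.7% held at least 1. The 3 detected genes with an entry, Hoxd8, Hoxa2 and Hoxd9, had 6, 6 and 13, and the 19 undetected ones 2 to 35 with a median of 12. The letters TATAAA, searched on both strands as were all motifs, were in 3 of the 22 (12.97% of all promoters), and CCAAT in 13 (34.5% of all). TAATTA, a homeodomain-type word, was in 1 (4.90% of all), and TGATTNAT, a Pbx and Hox type word, was in Hoxa2 alone of the 22 (2.99% of all).

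Hoxd8 (ENSMUSG00000027102, GRCm38 chr2:74704615-74707933, plus strand) is a middle-group gene used in the trunk. It had 38, 74 and 8 reads in the day 0 libraries, 43, 170 and 77 at day 4 and 8, 18 and 17 at day 7. In CPM these were 2.71, 6.19 and 1.03, then 1.31, 4.55 and 2.14, then 0.586, 1.69 and 1.09. Replicate 2 was the highest library at all 3 stages, and the day 0 and day 7 ranges overlapped. The day 0, day 4 and day 7 means were 3.31 ± 2.63, 2.67 ± 1.69 and 1.12 ± 0.550 CPM (SD, n = 3 each), and the earlier pair differed by less than either SD. The spread exceeded counting error: the chi-square of its reads over degrees of freedom was 19.97 at day 0 and 37.2 at day 4, against medians of 2.07 and 1.38 over genes with read totals of the same order, and 3.37 against 1.32 at day 7. Its exons share no bases with another annotated gene.

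Hoxd8 was the only Hox gene with the mean of at least 1 CPM over the day 0 and day 7 libraries that the test required. With limma on log2(CPM + 0.5), 3971 of 12712 genes passed an adjusted p of 0.05 between day 7 and day 0 (31.2%), of which 40.3% were higher at day 7, a share that became 52.1% with median-of-ratios scaling. Hoxd8 was among the lower ones, by -1.04 (SE 0.32) on this log2 scale with a limma adjusted p of 0.0102, beside a median of -0.11 over all genes tested, which median-of-ratios scaling moved to -0.0067. The call rested on single libraries. Without day 0 replicate 2 the change was -0.51 with a limma adjusted p of 0.266, and without day 7 replicate 1 it was -0.78 with 0.144. It was also lost with median-of-ratios scaling (-0.94, limma adjusted p = 0.112) and when every gene with reads was tested (limma adjusted p = 0.0652), a filter under which 17.1% of genes were called. edgeR on the reads gave -1.51 with an adjusted p of 0.0430, beside 43% of genes called. For a single gene an exact permutation test of 3 against 3 libraries cannot go below 0.1, and the limma value leans on a spread shared between genes (42.9 prior against 4 residual degrees of freedom).

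Hoxd9 (ENSMUSG00000043342, GRCm38 chr2:74697727-74700208, plus strand), which acts with its paralogs in the lower trunk and limb, had 12, 8 and 26 reads at day 0, 44, 71 and 17 at day 4 and 1, 8 and 1 at day 7. The CPM were 0.856, 0.669 and 3.36, then 1.34, 1.90 and 0.471, then 0.0732, 0.749 and 0.0640. A single library stood above the others at day 0 and at day 7, and the day 0 and day 7 ranges overlapped through it. The high library at both stages was also the one with most reads on Gm42418, a gene model over the ribosomal RNA repeat that marks ribosomal RNA left after depletion, and this link was noticed after the values were seen. Gm42418 stood at 29371, 30371 and 119626 CPM at day 0, 28347, 23590 and 12054 at day 4 and 10249, 81172 and 1099 at day 7. Of the 3 stages, Hoxd9 and Gm42418 had the same highest library in 2 and the same lowest library in 2. At day 7 the lowest Hoxd9 library was tied in reads, with 1 read in replicate 1 and 1 in replicate 3. Hoxd9 was not alone in this, since Hoxb9 had the same highest library as Gm42418 in 2 stages and Hoxc13 in 3. These ranks by CPM rest on few reads. At day 0 the highest Hoxb9 library had 5 reads against 7 and 7, and that of Hoxc13 had 4 against 6 and 3. At day 7 the highest Hoxc13 library had 2 reads, as had another. The library with most Gm42418 had the fewest reads on genes at each stage. These were 7741204 at day 0, 32820610 at day 4 and 10675858 at day 7. The transcripts of Hoxd9 share 5 stretches of 20 bases with a set of transcripts of ribosomal loci and of Lars2. Hoxd8 and Hoxb9 share none with this set, and 7 of the 39 Hox genes share any. The 5 stretches may overlap each other. At a length of 50 bases, 0 of the 2087 stretches of Hoxd9 were shared with other genes. The part of ribosomal reads in the Hoxd9 level was not tested.

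**Figure D3:**
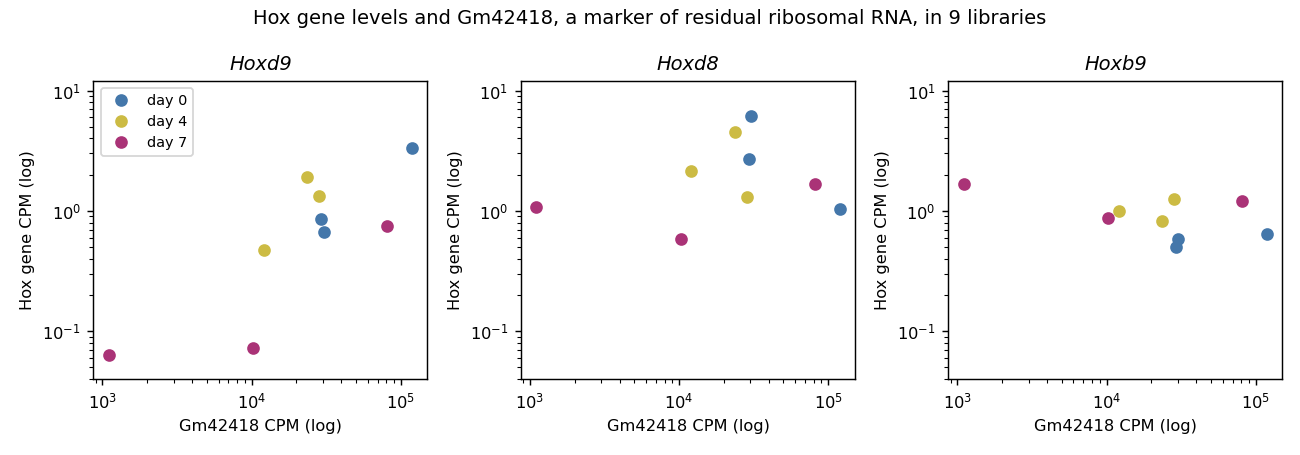
CPM of Hoxd9, Hoxd8 and Hoxb9 against CPM of Gm42418, a marker of residual ribosomal RNA, in 9 libraries (both axes log), with points coloured by day. Hoxd9 is at 3.36 CPM where Gm42418 is at 119626 CPM and at 0.0640 CPM where it is at 1099. The highest Hoxb9 value, 1.66 CPM, is in the library with the least Gm42418, although at day 0 and day 4 Hoxb9 was highest in the same library as Gm42418.

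Hoxb9 (ENSMUSG00000020875, GRCm38 chr11:96271457-96276595, plus strand), which acts with its paralogs in patterning the ribs, had few reads but even ones. It had 7, 7 and 5 reads at day 0, 41, 31 and 36 at day 4 and 12, 13 and 26 at day 7. The CPM were 0.499, 0.585 and 0.646, then 1.25, 0.830 and 0.998, then 0.878, 1.22 and 1.66. All day 4 and day 7 libraries were above all day 0 libraries, and day 4 and day 7 overlapped. The means were 0.577 ± 0.0736, 1.03 ± 0.210 and 1.25 ± 0.394 CPM (SD, n = 3 each). At day 0 the 95% Poisson intervals of the single libraries ran from 0.201 to 1.51 CPM and at day 7 from 0.454 to 2.44, so they overlapped.

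Hoxb9 and Hoxd9 could be tested only with a lower bar. With a mean of at least 0.1 CPM, 13 Hox genes were tested, and limma called 3 of them, beside 25.3% of all 17330 genes: Hoxb9 higher by 0.68 (SE 0.24, limma adjusted p = 0.0350), Hoxd9 lower by -1.31 (SE 0.31, limma adjusted p = 0.00115) and Hoxd8 lower by -1.04 (limma adjusted p = 0.0123). The limma values lean on a spread shared between genes (38.4 prior against 4 residual degrees of freedom). Hoxd9 itself spread more widely. The chi-square of its reads over degrees of freedom was 14.7 at day 0 and 7.25 at day 7, on 46 and 10 reads. The medians given above beside Hoxd8 were 2.07 and 1.32 at these stages. edgeR at the same bar called 2 of the 13, beside 33.5% of all genes. It kept Hoxb9 higher (1.30, edgeR adjusted p = 0.0266) and Hoxd8 lower (-1.49, edgeR adjusted p = 0.0408), and gave Hoxd9 -2.36 with an edgeR adjusted p of 0.0711. The limma call of Hoxb9 was lost without day 0 replicate 1 (adjusted p = 0.102), day 0 replicate 2 (0.0736), day 7 replicate 2 (0.0759) or day 7 replicate 3 (0.226). It was also lost with a pseudocount of 0.1 (limma adjusted p = 0.0619), in the RPKM table (0.0576), with any reads as the filter (0.0720) and with DESeq2 (0.0934). That of Hoxd9 was lost without day 0 replicate 3 (limma adjusted p = 0.0677), the library with most Gm42418, where its change became -0.77. It was also lost with median-of-ratios scaling (limma adjusted p = 0.0689), in the RPKM table (0.111) and with DESeq2 (0.162). At this bar 4 of the 13 Hox genes had day 0 and day 7 values that did not overlap, beside 37.4% of all genes: Hoxb9, Hoxb2 and Hoxb3 were higher and Hoxc13 lower at day 7. Hoxb2 and Hoxb3, with day 0 means of 0.0988 and 0.0279 CPM, reached the bar only through day 7. Their direction in this count was therefore favoured by the filter.

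Hoxa2 (ENSMUSG00000014704, GRCm38 chr6:52162417-52164831, minus strand) patterns the hindbrain and the second pharyngeal arch. It had 6, 2 and 3 reads in the day 0 libraries, 13, 8 and 10 at day 4 and 7, 1 and 4 at day 7, or 0.327 ± 0.1403, 0.296 ± 0.0922 and 0.287 ± 0.211 CPM (SD, n = 3). Its ranges overlapped at all stages, and with the lower bar it did not pass limma (-0.09, adjusted p = 0.832). It shares 15.0% of its exon bases with Gm28308 on the same strand.

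Hoxc13 (ENSMUSG00000001655, GRCm38 chr15:102921103-102928814, plus strand), a regulator of hair and nail keratin genes, had 6, 3 and 4 reads at day 0, 13, 9 and 6 at day 4 and 1, 2 and 2 at day 7. All day 0 libraries, at 0.251 to 0.516 CPM, were above all day 7 libraries, at 0.0732 to 0.187 CPM, although no day 7 library passed 3 reads. With the lower bar the change was -0.51 (SE 0.23) with a limma adjusted p of 0.101, and with any reads as the filter the limma adjusted p was 0.0451. Hoxc13 held 46 of the 71 HoxC reads and all 5 HoxC reads of day 7.

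**Figure D4:**
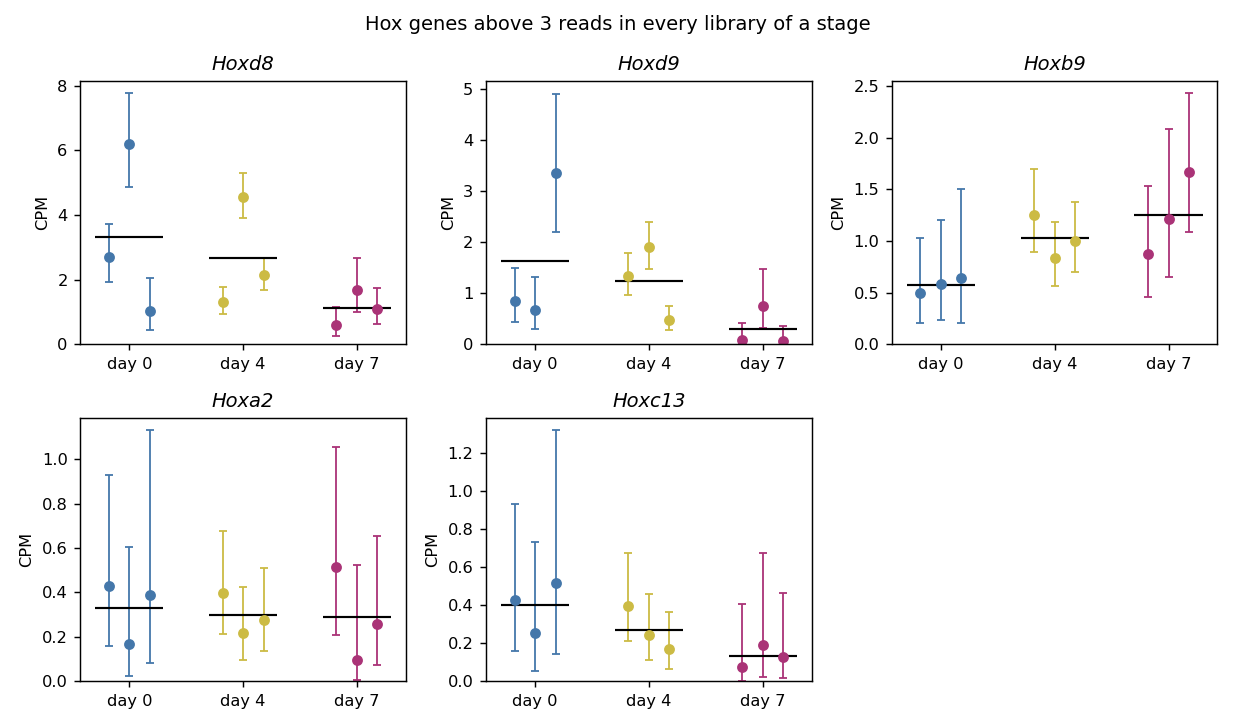
CPM of 5 of the detected Hox genes in each library at day 0, day 4 and day 7 (linear axes from 0); bars on the points are 95% Poisson intervals of the counts and horizontal lines are stage means. Hoxb9 has its 3 day 0 points below all others, while Hoxd8 and Hoxd9 each have 1 day 0 point, at 6.19 and 3.36 CPM, far above the remaining day 0 points.

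Among the 10 genes that passed 3 reads only in some libraries, 5 belonged to HoxB: Hoxb2, Hoxb3, Hoxb4, Hoxb6 and Hoxb8. Hoxb2, a hindbrain gene, had 0, 0.167 and 0.129 CPM at day 0 and 0.220, 0.468 and 0.192 CPM at day 7, and Hoxb3 had 0, 0.0836 and 0 CPM at day 0 and 0.146, 0.187 and 0.256 CPM at day 7. Their day 7 values rest on 2 to 5 reads per library, and neither passed limma (adjusted p = 0.213 and 0.189) or edgeR (adjusted p = 0.176 and 0.0793) at the lower bar. With any reads as the filter Hoxb3 passed limma (adjusted p = 0.0416) and Hoxb2 did not (0.112). Exon bases shared with an opposite-strand RNA made up 52.9% of Hoxb3 and 27.3% of Hoxb2, and the sources do not state whether counting used strand. The rest of the 10 were Hoxa3, Hoxa13, Hoxc4, Hoxc11 and Hoxd11, none above 5 reads in any library. The genes that never passed 3 reads included Hoxa5, Hoxc8 and Hoxc9 of the trunk, Hoxa10, Hoxa11 and Hoxd10 of the lower trunk and limb, and Hoxd13 of the digits. Hoxd3 and Hoxd4 share 62.3% and 52.3% of their exon bases with other genes, each other included, so their 1 and 10 reads in all are uncertain.

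More Hox genes were detected at day 4 than at the other stages, where depth was also higher. Day 0 had Hoxb9, Hoxd8 and Hoxd9 (3 genes), day 4 all 6, and day 7 Hoxb9 and Hoxd8 (2 genes). With a common minimum of 0.387 CPM, which 3 reads give in the shallowest library, the numbers were 3, 4 and 2. Without day 4 replicate 1 the day 4 number was 10, with Hoxa3, Hoxa13, Hoxb2 and Hoxb3 added at 4 to 7 reads in the remaining libraries.

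Summed over a cluster, levels moved in different directions from day 0 to day 7. HoxB held 1.21, 1.25 and 1.68 CPM at day 0 and 1.76, 2.43 and 2.43 at day 7, without overlap, with day 4 between at 1.59 ± 0.205 (SD, n = 3). HoxC held 0.570, 0.334 and 0.775 CPM at day 0 and 0.0732, 0.187 and 0.128 at day 7, also without overlap, and 0.452 ± 0.153 at day 4. Its day 7 values rest on 1, 2 and 2 reads, all on Hoxc13. HoxD held 3.64, 7.19 and 5.04 CPM at day 0 and 1.02, 2.62 and 1.22 at day 7, again without overlap, while the day 4 libraries, at 2.80, 6.62 and 2.80, overlapped those of day 0 and were above all of day 7. HoxA at day 0, from 0.752 to 1.28 CPM, overlapped both other stages, while all day 4 libraries, from 1.10 to 1.46, were above all day 7 libraries, from 0.732 to 1.02. The HoxA means were 1.02 ± 0.266, 1.24 ± 0.193 and 0.866 ± 0.147 CPM. Because HoxD carried most reads, all 39 genes together went from 8.25 ± 1.43 to 7.35 ± 2.22 and 4.82 ± 1.25 CPM. HoxD made up 64.2% of Hox reads at day 0 and 32.3% at day 7, and HoxB 16.4% and 46.6%. Single genes carried much of these sums. Over all 9 libraries Hoxb9 held 59.1% of HoxB reads, Hoxc13 64.8% of HoxC reads and Hoxd8 66.9% of HoxD reads. Of single genes with a mean of at least 0.1 CPM, 37.4% did not overlap between day 0 and day 7. The sums are descriptions without a test, and day 4 came from a table of its own and was not tested.

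**Figure D5:**
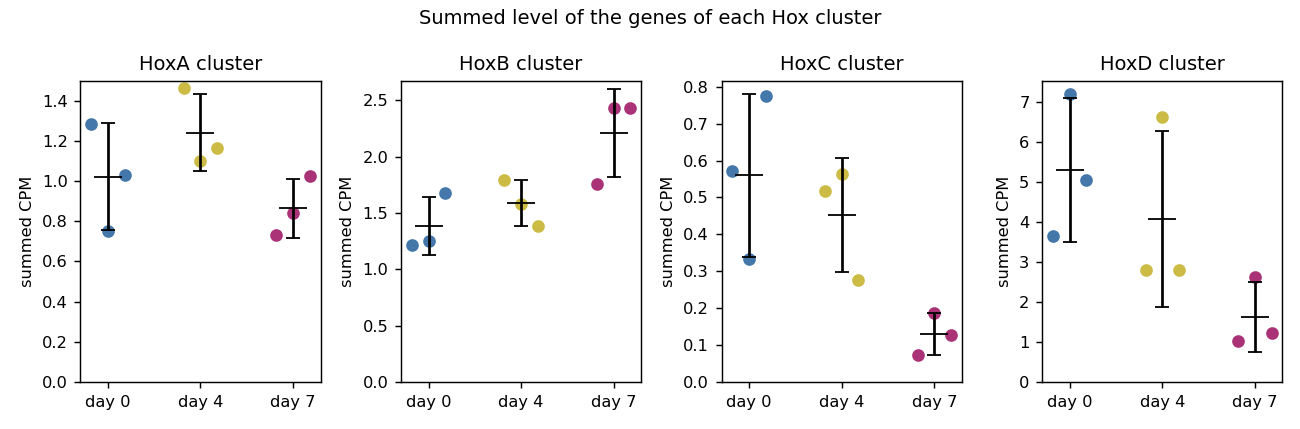
Summed CPM of the members of each Hox cluster in each library (points), with the stage mean and SD (black), at day 0, day 4 and day 7 (linear axes from 0). HoxB is at 1.21 to 1.68 CPM at day 0 and 1.76 to 2.43 at day 7, HoxD at 3.64 to 7.19 and 1.02 to 2.62, and HoxA overlaps between day 0 and day 7.

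The clusters also hold noncoding RNAs, of which 16 on a list of known ones were in the tables. Hotairm1, of the HoxA cluster, was the most read of these, with 9, 2 and 4 reads at day 0, 30, 29 and 31 at day 4 and 21, 9 and 10 at day 7, which is 145 reads in all. Hotair of HoxC and Hottip of HoxA, RNAs that bind chromatin-modifying complexes, had no reads, nor had Hoxa11os and Hoxb5os. Outside that list, Gm53, which ends upstream of Hoxb9, had 101 reads, at 7, 3 and 1, then 25, 19 and 18, then 9, 5 and 14. The processed pseudogene Gm11539, at 15 to 67 reads per library, was the only noncoding gene inside a cluster that passed 3 reads everywhere.

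The microRNA families miR-10 and miR-196 lie inside the clusters and are known to target Hox messages. Their mature sequences from RefSeq are shown, with the seed (bases 2 to 8) in capitals, because each family shares a seed although its genes sit in different clusters.
miR-10a-5p (HoxB): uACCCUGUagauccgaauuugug
miR-10b-5p (HoxD): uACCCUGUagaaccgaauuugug
miR-196a-5p (HoxB and HoxC): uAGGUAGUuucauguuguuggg
miR-196b-5p (HoxA): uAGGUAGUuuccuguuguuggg
The hairpin genes had 0 reads (Mir10a), 2 (Mir10b), 4 (Mir196a-1), 0 (Mir196a-2) and 0 (Mir196b) over all 9 libraries. These libraries were not made for short RNAs, so the mature microRNAs were not measured.

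The partners of Hox proteins were present. All 9 listed TALE homeodomain cofactors, which bind DNA together with Hox proteins, passed 3 reads in every library, with a median of their mean RPKM of 1.85 against 0.00825 for the Hox genes. Of 8 tested, 5 were lower at day 7 and none higher, beside 18.6% of all genes lower and 12.6% higher, and their median change was -0.64. Pknox2 changed most (-2.31, limma adjusted p = 9.47e-12), from 1.41 to 0.227 RPKM, and the lower ones included Meis2 (-0.81), Meis1 (-0.73) and Pbx3 (-0.66). Pbx2, Meis3 and Pknox1 were between 3.36 and 10.8 RPKM as stage means and did not pass (limma adjusted p from 0.200 to 0.673). Leaving out 1 library at a time left 4 to 7 of the 8 lower, beside 1527 to 4696 of all 12712 genes.

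The complexes known to silence and to open the clusters were present too. All 23 Polycomb genes listed passed 3 reads in every library, with 2 of 23 higher at day 7 and 6 lower, beside 12.6% and 18.6% of all genes (median change -0.13, against -0.11 over all genes). Jarid2, a subunit that recruits Polycomb repressive complex 2, rose by 0.67 (limma adjusted p = 0.00237), and Cbx2, a reader of its mark, fell by 0.88 (limma adjusted p = 0.000327). The catalytic Ezh2 (0.09, adjusted p = 0.766), Eed (-0.05, adjusted p = 0.851) and Suz12 (-0.05, adjusted p = 0.867) did not pass limma. Of 10 Trithorax and H3K27 demethylase genes none was higher and 2 were lower, Psip1 (-0.55) and Kmt2a (-0.45), close to the share of all genes. Without day 0 replicate 3, lower calls rose to 10 of 23 and 6 of 10, as lower calls over all genes rose to 36.9%. Without day 0 replicate 2 or day 7 replicate 3, 2 of 23 Polycomb genes were lower. Lower calls over all genes were then 1527 and 1670 of 12712.

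Of 16 genes known to set Hox expression in the embryo, 11 were tested, with 2 higher and 3 lower, beside 12.6% and 18.6% of all genes (median change -0.25). The caudal genes Cdx2 and Cdx4 had no reads, and Cdx1 stayed at or below 0.0139 RPKM as a stage mean. Among those called were genes of retinoic acid metabolism and signalling: Aldh1a2, a synthesizing enzyme, rose by 2.16 (limma adjusted p = 1.99e-08) and the degrading enzyme Cyp26b1 by 0.54 (limma adjusted p = 0.0208), while the synthesizing Aldh1a1 fell by 1.64 (limma adjusted p = 3.41e-07) and the receptor gene Rarg by 0.41. Aldh1a2 is also on the list of meningeal markers. The ParaHox and Evx genes, the closest relatives of Hox genes, were under the bar of 1 CPM (5 of 5), and Gsx2 was at 0 reads.

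Several homeobox genes that pattern the skull were abundant. The median of the 20 genes' mean RPKM was 2.92, and stage means of Prrx2 were 65.7 to 81.4, of Prrx1 41.2 to 51.2 and of Alx4 14.5 to 24.6 RPKM. Of 17 tested, 2 were higher and 9 lower at day 7, beside 12.6% and 18.6% of all genes (median change -0.55). Dlx3, a gene needed in tooth and bone, rose by 4.51 (limma adjusted p = 2.11e-20), from 0.0586 to 5.37 RPKM, while Msx2, a regulator of suture growth, fell by 1.91 and Msx1 by 1.54. Of 19 other transcription factors of trunk and limb position, 10 were tested, with 2 higher, Tbx2 (1.84) and Shox2 (1.41), and 3 lower, Meox2 (-1.34), Pax1 (-1.26) and Tbx4 (-2.32). Tbx4, a hindlimb gene, stood at 224, 224 and 1283 CPM at day 0 and 86.9, 526 and 10.7 at day 7, with the same highest library as Gm42418 at both stages. Its transcripts share 1 stretch of 20 bases with the set of ribosomal loci and Lars2. The limb genes Tbx5 and Pitx1 were at or near 0, with stage means up to 0.00541 and 0.0136 RPKM. Genes flanking the clusters, tested as a list of 18, had none higher and 5 lower, beside 12.6% and 18.6% of all genes (median change -0.18). Without day 0 replicate 3 there were 10 lower, when 4696 of 12712 genes (36.9%) were lower.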

How the data were processed

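RNA was depleted of ribosomal RNA with Ribo-Zero Gold. Per the labels, the authors aligned reads with STAR 2.0.4b to GRCm38 and counted them per gene with featureCounts. The authors deposited CPM (a gene's reads scaled to the library's total) and RPKM (CPM also divided by the kilobases of the gene model). All CPM values (100%) came out as whole reads within 0.01 reads, so read counts were recovered, and edgeR 4.0.16 on them called 5468 of 12712 genes. The members, lists and tests were chosen with earlier results of these data known. A gene was named with every value, apart from some genes not reported here, if it had more than 3 reads in all 3 libraries of a stage. Day 7 was compared with day 0 by limma 3.58.1 on log2(CPM + 0.5) for genes with a mean of at least 1 CPM, in the 6 libraries of these stages, with Benjamini-Hochberg adjustment. Fold changes on this scale understate the change of low genes. The test was checked on simulated data for genes over this bar only, with fewer genes changed than were called here. Its use at the lower bar was not checked in this way. Same-numbered libraries of day 0 and day 7 had deviations correlated at -0.435 to -0.016, so numbers were not used as pairs. Alternatives were other pseudocounts, filters and scalings, RPKM, edgeR, DESeq2 1.42.0, voomWithQualityWeights, a block and each library left out. Coordinates, exon overlaps and transcript sequences came from GENCODE M21 (GRCm38), promoters and microRNAs from RefSeq, with 22 of 39 Hox genes matched to a promoter. The shared 20-base stretches were searched in transcripts of Gm42418, n-R5-8s1, Gm15564, mt-Rnr1, mt-Rnr2 and Lars2. Of the list symbols, Lnp, Hotairm2, Haglros, Hoxb13os and Mira matched no gene and were not used here.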

Additional observations from a re-analysis of the deposited data

How the results depend on the processing

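The direction of Hoxd8 between day 0 and day 7 was the same under all 18 alternatives, with adjusted p from 0.000188 to 0.266. It no longer passed when every gene with reads was tested (-1.04) or with median-of-ratios scaling (-0.94), and leaving out a library gave -1.57 to -0.51. The Hox genes called numbered 1 in the fit reported and 3 with a bar of 0.1 CPM, 3 with any reads (Hoxd9, Hoxc13 and Hoxb3, without Hoxd8 and Hoxb9), 0 with median-of-ratios scaling, 2 with edgeR at 0.1 CPM and 0 to 1 without a library. At 0.1 CPM the alternatives called 0 with RPKM, 1 with median-of-ratios scaling (Hoxb9), 1 with DESeq2 (Hoxd8) and up to 3 with others. Over all genes, voomWithQualityWeights called 6120 and leaving out a library 2906 to 6299. The fit with the replicate number as a block called 3413 genes and Hoxd8 (adjusted p = 0.00117), and 0 of 6 libraries correlated best with their own number. In that fit the prior degrees of freedom were infinite, as in the one without day 7 replicate 2, which gave the lowest adjusted p. Both thus used only the spread shared between genes and not that of Hoxd8 itself. The cause of the differences between alternatives was not tested. Hox genes detected at day 0 were 9 when any library above 3 reads was enough, 8 with 1 read in every library and 0 with more than 10 reads in every library. At day 4 they were 15 and 14 under the laxer rules and 6 to 10 without a library, and at day 7 they were 10, 11 and 1. HoxB without Hoxb9 had a log2 ratio of day 7 to day 0 of 0.25 in place of 0.68, and HoxC without Hoxc13 gave none, having no reads at day 7. Most Hox genes lie at or under 3 reads, where these depths show no difference.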

Other observations

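In HoxA the antisense RNA Hoxaas2 with 37 reads in all and Gm15050 with 32 were read more than Hoxa3, the coding gene whose span both overlap, with 12 reads. In HoxD, by contrast, the antisense Hoxd3os1, whose span covers Hoxd8, had 14 reads in all against 453 on Hoxd8. Hoxa3 shares 27.1% of its exon bases with other genes, Hoxaas2 included, while Hoxd8 shares none. The sources do not state whether counting used strand, so the reads of Hoxa3 and Hoxaas2 are uncertain.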
